A study of Mus musculus with 13 samples.

Results

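The genes described here act in homologous recombination, in the Fanconi anaemia pathway and in the checkpoint that watches over DNA replication. The list named 38 genes by symbol, and 36 of them were found among the 18194 genes of one array type and 36 among the 19938 genes of the other. Xrcc2 and Rbbp8 were not analysed here. The genes were taken by name, not by a measured value, and 1 probe set stood for each gene, the brightest on average on its array type.

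Homologous recombination copies an intact sister DNA molecule to mend broken or stalled DNA. The broken end is first cut back to a single strand, mediators such as BRCA2 then ready that strand to pair with the intact copy, and the joined molecules are later taken apart by helicases and nucleases. Fanconi proteins recognise and unhook DNA strands that are crosslinked to each other, and hand the resulting break to recombination. Developing B cells alternate between division and programmed breaks of their antibody genes, and Ikaros, a zinc finger transcription factor encoded by Ikzf1, is known for restraining the division of pre-B cells.

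All samples were the mouse pre-B cell line B3, transduced with mouse stem cell virus vectors that also encode GFP. In the first design, cells carried HA-tagged wild-type Ikaros (2 arrays) or the HA-tagged mutant 159A, which is deficient in DNA binding (2 arrays), and RNA was taken at 48 h after infection. In the second, cells carried HA-Ikaros-ERt2, a fusion of Ikaros to the hormone-binding domain of the estrogen receptor, and were exposed to 4-hydroxytamoxifen for 2 h (3 arrays) or 6 h (3 arrays), and the control cells carried the ERt2 vector and were treated for 6 h (3 arrays). The first design was measured on Affymetrix 430 2.0 arrays and the second on Gene 1.0 ST arrays, so no level was compared across the designs. The 2 h arrays have no vector control of their own time, and the 48 h control is a mutant Ikaros, not an empty vector. The second design has no untreated arrays. A response to 4-hydroxytamoxifen therefore cannot be told apart from a standing difference between the Ikaros-ERt2 and vector-ERt2 cells. Whether transduced cells were sorted is not given in the sources used here. All values are deposited log2 values, so that a difference of 1 is a 2-fold difference, and the number of arrays limits their precision.

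Ikzf1 on the Gene 1.0 ST arrays read 13.28 ± 0.10 at 2 h, 13.26 ± 0.04 at 6 h and 9.27 ± 0.12 in the vector cells (SD, n = 3 each), in the order the titles give. A label of vector replicate 1 names the Ikaros construct, but its title names the vector, and Ikzf1 read 9.16 there and 9.25 and 9.39 in vector replicates 2 and 3. At 48 h both groups carry an Ikaros transgene, and Ikzf1 read 12.04 ± 0.06 and 11.71 ± 0.15 (SD, n = 2 each; adjusted p = 0.175 by limma). This is the brighter of its 2 probe sets. With the mean over both, the log2 change turns from 0.33 to -4.01 (adjusted p = 0.0184 by limma), so that the direction depends on the probe set. The log2 change of the other probe set therefore lay as far below -4.01 as that of the brighter one lay above it, so that it read far lower in Ikaros cells. All 9 B lineage markers that were found passed the filter on low values on both array types. Of the markers of other cells, 0 of 6 fibroblast genes, 2 of 6 T cell genes and 3 of 8 myeloid genes passed the filter on the 430 2.0 arrays, and 3, 1 and 0 of them on the Gene 1.0 ST arrays. The myeloid genes at 48 h went different ways: Fcgr3 was at least 30.4-fold higher in Ikaros cells (8.12 against 2.93; adjusted p = 0.018 by limma), while Lyz2 read 2.67 and 2.63 against 4.75 and 4.03, at least 2.3-fold lower with Ikaros cells near the floor and not called (adjusted p = 0.0672 by limma). Elane lay near the floor in both groups. On the 430 2.0 arrays 36.7% of values lay at the lowest value, 2.19. A group was therefore treated as near the floor where its values or their mean lay within 1 unit of it, at or below 3.19, and its fold is then given as a lower bound.

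At 48 h most recombination and Fanconi genes were lower in Ikaros cells than in cells with the 159A mutant. Of the 35 members tested, 9 fell and 1 rose (adjusted p under 0.05 by limma, adjusted over all genes tested), beside 8.47% of all 10916 genes that fell and 6.38% that rose, 14.8% in all. The median log2 change of the members was -1.29, against 0 for all genes tested, with a range from -3.80 to 1.49. With the mean over the probe sets of a gene, that median was -0.72. In 27 members both Ikaros arrays lay below both 159A arrays, in 3 both lay above, and in 5 the groups overlapped; over all genes 30% were lower and 27.7% higher without overlap. A negative change was seen in 30 of the 35 members, against 48.9% of all genes. Another 13 members reached an unadjusted p under 0.05 but missed the adjusted threshold, which makes 23 in all. Over all genes tested, 3674 of 10916 reached an unadjusted p under 0.05. In whole-culture RNA, fewer cells that express a gene and less RNA per cell cannot be told apart.

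**Figure D1:**
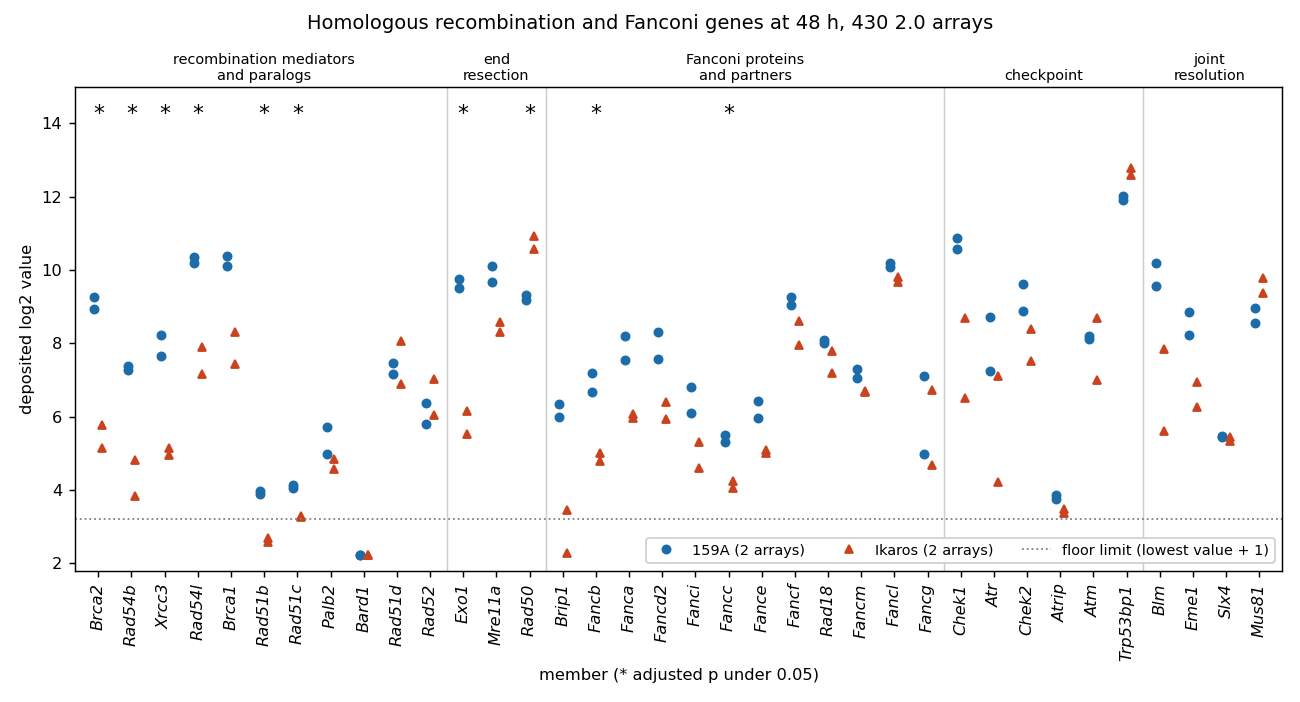
Deposited log2 values at 48 h of the 36 members found on the 430 2.0 arrays, grouped by role along the x axis; circles are the 2 arrays of 159A cells, triangles the 2 arrays of Ikaros cells, and a star marks an adjusted p under 0.05. Most triangles lie below the circles, Rad50 is the starred gene with triangles above, and Bard1 lies at 2.21 on all 4 arrays, under the dotted floor limit of 3.19.

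The recombination mediators and paralogs held most of the calls. Of the 10 tested, 6 fell and none of the 10 rose, beside 8.47% and 6.38% of all genes, and their median log2 change was -1.83. Brca2, the tumour suppressor gene whose product mediates the start of recombination on single-stranded DNA, read 5.15 and 5.78 in the Ikaros arrays and 9.27 and 8.94 in the 159A arrays. The groups lay far apart, a log2 change of -3.64 ± 0.30 (SE), or 12.5-fold lower (adjusted p = 0.0286 by limma). Rad54b, a motor protein of the recombination step, read 3.83 and 4.82 against 7.28 and 7.38, 8.03-fold lower (adjusted p = 0.0493 by limma). Its relative Rad54l read 7.17 and 7.9 against 10.19 and 10.35, 6.65-fold lower (adjusted p = 0.039 by limma), and all 4 of its probe sets were lower, with log2 changes from -2.79 to -1.44. In each of these genes the higher Ikaros array was replicate 2.

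Xrcc3, Rad51b, Rad51c and Rad51d are paralogs that form small complexes and assist recombination. Xrcc3 read 5.15 and 4.94 in Ikaros arrays and 8.23 and 7.65 in 159A arrays, 7.45-fold lower (adjusted p = 0.0312 by limma). Its other probe set showed a smaller difference, with means of 4.88 against 5.99 (log2 change -1.12). Rad51b and Rad51c were called as well, but both lie low on this array. Rad51b read 2.57 and 2.68 against 3.97 and 3.9, with the Ikaros cells near the floor, so that it was at least 1.67-fold lower (adjusted p = 0.0227 by limma). Rad51c read 3.26 and 3.29 against 4.13 and 4.05, 1.76-fold lower (adjusted p = 0.0274 by limma), with the Ikaros arrays just above the floor limit. Its other probe set lay near the floor, at 2.63 in both groups. Rad51d showed no common direction, at 8.06 and 6.88 against 7.46 and 7.15 (log2 change 0.17 ± 0.52 (SE), adjusted p = 0.882 by limma), and its probe sets differed in sign.

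The remaining genes of this role were not called. Brca1, which helps to choose recombination over end joining, read 7.44 and 8.32 against 10.37 and 10.11, a log2 change of -2.36 ± 0.39 (SE) that missed the threshold (adjusted p = 0.0611 by limma). Its partner gene Bard1 lay at 2.21 on all 4 arrays and was not tested at 48 h. Palb2, the bridge between BRCA1 and BRCA2, had a log2 change of -0.63 (adjusted p = 0.326 by limma), and Rad52, an annealing factor whose probe sets differed in sign, one of 0.45 (adjusted p = 0.589 by limma).

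The start regions of the called genes are shown for the 5 members called in the most comparisons, then by the smallest p at 48 h, that hold one of the searched motifs. RefSeq promoter windows (build GRCm38.p6, from 250 bases before a gene's start to 50 after it) were listed for 31 of the 38 members, in 35 windows; Exo1, Fancd2, Rad50, Rad51d, Rad54b, Rbbp8 and Xrcc2 had none listed. Both strands were searched for the E2F-type letters TTTCCCGC, TTTGCCGC, TTTCGCGC and TTTGGCGC, named for a family of factors that acts on replication genes, and for TGGGAA, the core that Ikaros zinc fingers recognise. An E2F-type match lay in 6 of the 35 windows (17.1%), belonging to Bard1, Brca2, Chek2, Fancg and Rad51c, against 744 of all 32851 windows (2.26%). TGGGAA lay in 11 windows (31.4%) against 25.6% of all, and none of the 35 windows held both, as 164 of all windows did. Overlapping windows of Rad51b and of Rad54l count the same TGGGAA more than once. By gene, TGGGAA lay in 9 of 31 members against 7651 of all 27025 genes. An E2F-type match lay in 5 of 31 members against 704 of all 27025 genes. For comparison, 10 of 28 windows (35.7%) of S phase genes held an E2F-type match. Each sequence below reads 5′ to 3′ on the gene's own strand, with the matched letters, on either strand, in capitals.
Brca2, chr5:150522411-150522480 (+), bases -210 to -141 from the start: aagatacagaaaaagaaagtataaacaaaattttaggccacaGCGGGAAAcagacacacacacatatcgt
Rad51b, chr12:79297179-79297248 (+), bases -103 to -34 from the start: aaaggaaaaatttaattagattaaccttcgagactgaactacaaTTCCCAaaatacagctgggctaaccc
Rad51c, chr11:87404477-87404506 (-), bases 1 to 30 from the start: gtttccagcgcTTTCGCGCctcttgctcta
Rad54l, chr4:116123649-116123678 (-), bases 13 to 42 from the start: aacgcgcgcttTGGGAAgaggaagaataag
Fancc, chr13:63431758-63431827 (-), bases -82 to -13 from the start: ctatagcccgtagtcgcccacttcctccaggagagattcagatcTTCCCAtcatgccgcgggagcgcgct
Brca2 and Rad51c thus hold an E2F-type match, and Rad51b, Rad54l and Fancc hold the Ikaros core. A match of letters is a description of the window and not evidence of binding, which was not measured on these arrays.

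Among the end resection genes the changes ran both ways. Exo1, the nuclease that extends the resected strand, showed the largest fall of all members, from 9.76 and 9.51 in 159A arrays to 5.53 and 6.14 in Ikaros arrays. This is 13.9-fold lower (log2 change -3.80 ± 0.28 (SE), adjusted p = 0.026 by limma), and its other probe sets gave -3.64 and, with Ikaros cells near the floor, -0.49 (3.01 against 3.51). Rad50, the coiled-coil subunit of the MRE11 complex that holds broken ends together, was the member that rose. It read 10.92 and 10.56 in Ikaros arrays and 9.19 and 9.31 in 159A arrays, 2.81-fold higher (log2 change 1.49 ± 0.17 (SE), adjusted p = 0.0379 by limma). Mre11a, the nuclease of the same complex, lay on the other side, at 8.31 and 8.59 against 9.67 and 10.11 (log2 change -1.44 ± 0.22 (SE)), and was not called (adjusted p = 0.0567 by limma). The third subunit, Nbn, which was not a member, stood at 4.2 and 5.34 against 8.08 and 8.51 and was not called either (adjusted p = 0.0522 by limma).

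All 12 Fanconi genes and partners had a negative change at 48 h, with a median of -1.21. Of the 12, 2 fell past the threshold, beside 8.47% of all genes. Fancb, a subunit of the core complex that marks FANCD2 and FANCI with ubiquitin, read 5.01 and 4.8 against 6.68 and 7.2, 4.09-fold lower (adjusted p = 0.0393 by limma). Fancc, of the same complex, read 4.23 and 4.06 against 5.51 and 5.3, 2.4-fold lower (adjusted p = 0.034 by limma). In both genes the groups lay more than 1 unit apart, further than their replicates.

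The other 10 of these genes missed the threshold. The largest difference was in Brip1, the BRCA1-associated helicase also known as FANCJ, at 2.28 and 3.46 against 5.98 and 6.35. With Ikaros cells near the floor, this is at least 7.16-fold lower (adjusted p = 0.0586 by limma). The core gene Fanca (log2 change -1.85, adjusted p = 0.0539 by limma) and the marked pair Fancd2 (-1.77, 0.086) and Fanci (-1.50, 0.139) had no overlap between groups. Fance, the core subunit that contacts FANCD2, read 5.1 and 5 against 5.96 and 6.43 (adjusted p = 0.0694 by limma). Smaller differences, from -0.87 to -0.40, were seen in the core genes Fancf and Fancl, the translocase Fancm and the ubiquitin ligase Rad18. Fancg read 6.72 and 4.69 against 7.11 and 4.97, so that its arrays differed more by replicate number than by group (adjusted p = 0.914 by limma).

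None of the 6 checkpoint genes was called, beside 14.8% of all genes, and their median change was -0.83. An unadjusted p under 0.05 was reached by 3 of the 6, against 3674 of all 10916 genes tested. Chek1, the kinase that slows replication when forks stall, read 6.5 and 8.69 in Ikaros arrays and 10.57 and 10.88 in 159A arrays (log2 change -3.13 ± 0.94 (SE), adjusted p = 0.147 by limma). Its activating kinase Atr read 4.22 and 7.1 against 7.25 and 8.73 (adjusted p = 0.371 by limma), and its probe sets differed in sign. In both genes the Ikaros replicates lay more than 2 units apart. Atm, the kinase that answers to broken ends, read 6.99 and 8.68 against 8.19 and 8.13, with overlapping groups (adjusted p = 0.814 by limma). Chek2, its target kinase, had a log2 change of -1.29 (adjusted p = 0.209 by limma), and the Atr partner gene Atrip one of -0.37 (adjusted p = 0.102 by limma). Trp53bp1, which shields broken ends from resection, read 12.79 and 12.6 against 12.01 and 11.92, 0.73 higher on the log2 scale and just over the threshold (adjusted p = 0.0507 by limma).

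The 4 genes that take joined molecules apart were not called either, beside 14.8% of all genes called, and had a median change of -1.01. Blm, the Bloom helicase, read 5.61 and 7.84 against 9.57 and 10.2, a wide difference with a wide spread (log2 change -3.16 ± 0.98 (SE), adjusted p = 0.155 by limma). The nuclease subunits Eme1 and Mus81, which work as a pair, lay on opposite sides. Eme1 had a log2 change of -1.95 (adjusted p = 0.081 by limma) and Mus81 one of 0.81, at 9.77 and 9.37 against 8.97 and 8.55 (adjusted p = 0.154 by limma). Slx4, the scaffold that gathers such nucleases, hardly differed between arrays, at 5.33 and 5.43 against 5.43 and 5.46 (adjusted p = 0.582 by limma), and its sign turned to 0.04 when each array was centred on its median, which moved all changes at 48 h by 0.105.

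The 2 Ikaros arrays at 48 h differed from each other in some of these genes. Replicate 2 lay more than 1 unit above replicate 1 in Brip1, Atm, Atr, Chek1 and Blm, 5 of 35 members against 6.7% of all genes tested. In Fancg and Rad51d replicate 1 lay more than 1 unit above replicate 2. Over the whole list replicate 2 was higher in 21 members and replicate 1 in 14, with a median difference of 0.13, while over all genes tested replicate 1 was higher in 6297 and replicate 2 in 3784 (median -0.09). Replicate 2 was higher in 25 of 29 S phase genes (median 0.35). In the G2 and mitosis list the difference was larger, with 12 of 19 genes over 1 unit and a median of 1.1. The part of this difference in the results was not tested.

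Cell division genes moved with the members at 48 h. Of 29 S phase genes, 20 fell (median log2 change -2.12), and of 19 G2 and mitosis genes 1 fell (median -1.77), and all 48 had a negative change. The mean of the S phase list was 9.11 and 9.52 on the Ikaros arrays and 11.66 and 11.64 on the 159A arrays. For the members these means were 6.29 and 6.58 against 7.81 and 7.76. How much of the members' change goes with the share of dividing cells was not tested. Other genes of the pathway, 43 of which were tested, also gave falls only, 8 in number, with a median of -0.78 and 36 negative changes. Over all genes tested, 8.47% fell and 6.38% rose. The 4 with the smallest p were the helicase gene Helq (log2 change -2.76, adjusted p = 0.0206 by limma), the recombination accessory gene Rad51ap1 (-2.71, 0.0214), the fork protection gene Timeless (-3.33, 0.0227) and Rpa2, which coats single-stranded DNA (-1.56, 0.0227).

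**Figure D2:**
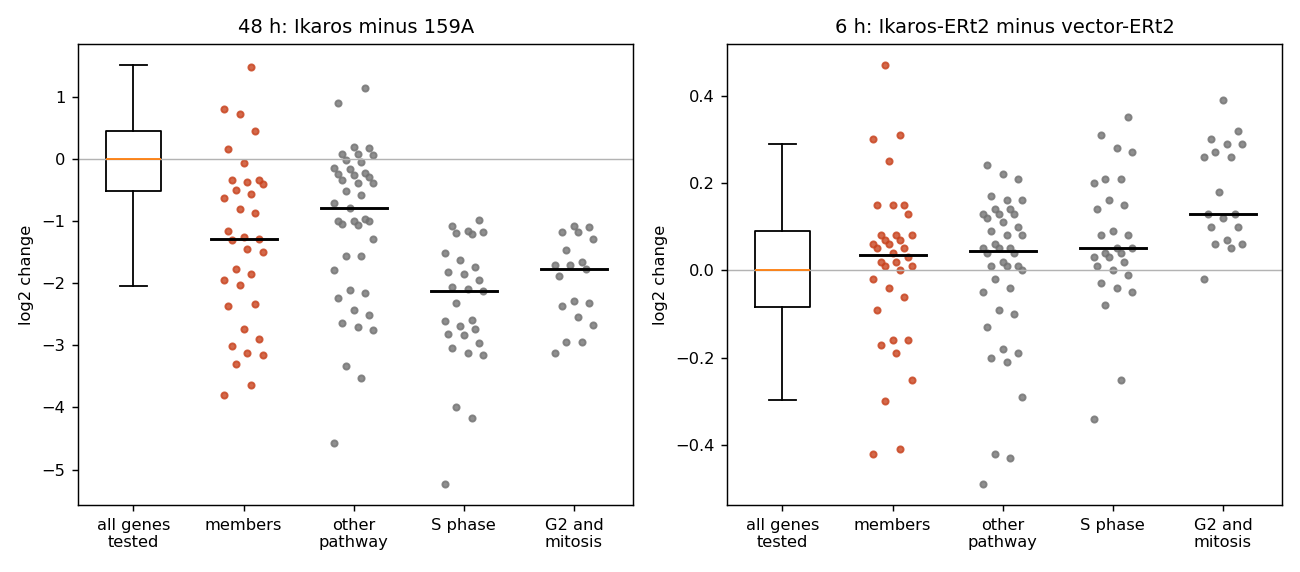
Log2 change of each gene (points) with the median of its list (bars), at 48 h (left, Ikaros minus 159A) and at 6 h (right, Ikaros-ERt2 minus vector-ERt2); the box spans the middle 50% of all genes tested and its whiskers 5% to 95%. At 48 h the median of the members is -1.29 and that of the S phase list -2.12, while at 6 h all lists lie within 0.5 of 0, on a y axis of much smaller range.

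The calls at 48 h rest on 2 arrays a group. With any 1 of the 4 arrays left out, 0 of the members and 0 of all genes were called by limma, with 13 to 19 members still at an unadjusted p under 0.05 and a median change between -1.36 and -1.20. Without the filter on low genes, which brings more genes into both the fit and the adjustment, 0 of 36 members were called as well. The 10 called members then had adjusted p-values between 0.0601 and 0.151 by limma. Which of these steps cost the calls was not tested.

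At 2 h of 4-hydroxytamoxifen no member passed the threshold. Of the 36 members tested, 0 were called by limma, beside 1.86% of all 11963 genes called (0.769% higher and 1.1% lower). An unadjusted p under 0.05 was reached by 9 of the 36 members, against 1691 of the 11963 genes. A negative change was seen in 23 members, against 52.8% of all genes. In 6 members all 2 h arrays lay below all vector arrays and in 5 above, against 9.4% and 9.23% of all genes. Their median log2 change over the vector cells was -0.03, against -0.01 for all genes, with a range from -0.40 to 0.27. The smallest p-values belonged to Fancc, Fance and Bard1. Fancc read 6.38, 6.45 and 6.44 at 2 h and 6.93, 6.69 and 6.67 in vector cells, without overlap (log2 change -0.34 ± 0.09 (SE), adjusted p = 0.0784 by limma). Fance read 8.08, 8.25 and 8.13 against 8.63, 8.37 and 8.66, also without overlap (-0.40 ± 0.11 (SE), adjusted p = 0.0936 by limma). Bard1 lay the other way, at 7.9, 7.89 and 7.96 against 7.67, 7.61 and 7.67 (0.27 ± 0.07 (SE), adjusted p = 0.1 by limma).

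Brca2 was the member whose call at 2 h depended on 1 array. It read 6.87, 6.85 and 7.3 against 7.45, 7.32 and 7.45, with replicate 3 well above the other 2 h arrays, and was not called (log2 change -0.40 ± 0.11 (SE), adjusted p = 0.121 by limma). Without that array its change was -0.54 (adjusted p = 0.0148 by limma), the single member called with that array left out. Of the 42 other pathway genes tested, 2 were called lower than in vector cells, beside 1.1% of all genes. They were Slx1b, the catalytic partner of Slx4 (-0.50, adjusted p = 0.00711 by limma), and the resection nuclease gene Dna2 (-0.35, adjusted p = 0.0433 by limma). The Dna2 call was lost in 8 of 9 fits that left out 1 array, while that of Slx1b held in all 9, with adjusted p-values up to 0.0444.

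At 6 h, 5 of the 36 members passed the threshold, 3 higher and 2 lower than in vector cells, beside 5.78% of all genes called (2.58% higher and 3.2% lower). All 5 changes were under 1.4-fold. A negative change was seen in 13 members, against 50.1% of all genes, and 6 members lay lower and 4 higher on every array, against 10.3% and 11%. The median log2 change of the members was 0.04, against 0 for all genes. The 3 higher members all belong to the mediators and paralogs, and the 2 lower members are both Fanconi core genes. The median log2 change was 0.06 over the 11 mediators and paralogs, 8 of them positive. It was 0 over the 12 Fanconi genes and partners, 6 of them positive.

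Rad51c, the paralog that partners Xrcc3, read 6.65, 6.66 and 6.58 at 6 h and 6.23, 6.06 and 6.19 in vector cells. All 3 arrays lay above the vector arrays, and the change was 0.47 ± 0.09 (SE), 1.38-fold (adjusted p = 0.00897 by limma). Bard1 read 7.95, 8.06 and 7.84 against 7.67, 7.61 and 7.67 (0.30 ± 0.07 (SE), adjusted p = 0.0341 by limma). Rad54b read 7.48, 7.59 and 7.53 against 7.21, 7.11 and 7.35 (0.31 ± 0.08 (SE), adjusted p = 0.0369 by limma). Neither gene overlapped between the groups.

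Fancc and Fance, whose products sit together in the core complex, were the called members lower than in vector cells. Fancc read 6.45, 6.26 and 6.35 against 6.93, 6.69 and 6.67, 1.33-fold lower (log2 change -0.41 ± 0.09 (SE), adjusted p = 0.0179 by limma). Fance read 7.92, 8.22 and 8.25 against 8.63, 8.37 and 8.66, 1.34-fold lower (-0.42 ± 0.11 (SE), adjusted p = 0.0402 by limma). The 2 h arrays of both genes also lay below all vector arrays. Between 2 h and 6 h the log2 changes were -0.07 for Fancc and -0.02 for Fance (adjusted p = 0.813 and 0.957 by limma).

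**Figure D3:**
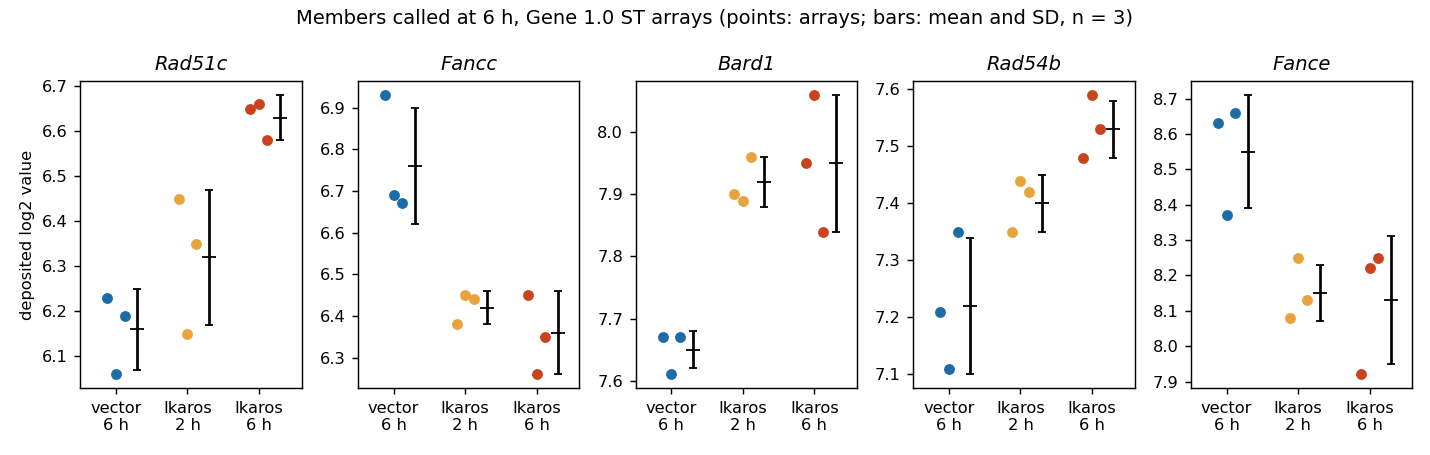
Deposited log2 values of the 5 members called at 6 h on the Gene 1.0 ST arrays, 1 panel per gene with its own y axis; points are the 3 arrays of each group and bars the mean and SD. Rad51c is highest at 6 h (6.63 ± 0.05 against 6.16 ± 0.09 in vector cells), while Fancc and Fance are lower than in vector cells at both 2 h and 6 h.

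Of the other 31 members, 4 had an unadjusted p under 0.05. With the 5 called this makes 9 of 36, against 2130 of all 11963 genes tested. The largest uncalled differences were a log2 change of -0.30 in Fancm (adjusted p = 0.121 by limma), -0.25 in Mre11a (adjusted p = 0.13 by limma) and 0.25 in Chek1 (adjusted p = 0.154 by limma). Exo1 read 8.5, 8.5 and 8.46 against 8.43, 8.37 and 8.5, a change of 0.05 ± 0.07 (SE). Brca1, Xrcc3, Rad54l and Blm likewise differed by 0.07 or less, and Brca2 by -0.19 ± 0.11 (SE). Among the other pathway genes, 3 of 42 were called lower than in vector cells and none of the 42 higher. They were Slx1b (-0.49, adjusted p = 0.00318 by limma), Dna2 (-0.43, 0.0074) and Nbn (-0.42, 0.0175). In the cell division lists 2 of 48 genes were called higher than in vector cells, the cyclin gene Ccne2 by 0.35 and the spindle gene Prc1 by 0.39. The medians were 0.05 for S phase and 0.13 for G2 and mitosis. Over all genes 3.2% were called lower and 2.58% higher.

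The Rad51c call at 6 h held with each of the 9 arrays left out in turn (adjusted p up to 0.0447 by limma). The other 4 calls were each lost in at least 1 of these fits, with adjusted p-values by limma up to 0.075 for Fancc, 0.121 for Bard1, 0.139 for Rad54b and 0.161 for Fance, as was that of Nbn (up to 0.0871). The count of called members was 1 without Ikaros-ERt2 6 h replicate 2 or vector replicate 1, 2 without Ikaros-ERt2 2 h replicate 1 or 6 h replicate 1, and 3 without 2 h replicate 3, vector replicate 2 or vector replicate 3. It was 4 without 6 h replicate 3 and 5 without 2 h replicate 2, and it was 1 when only the arrays of the 2 groups were fitted.

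Between 2 h and 6 h of exposure no member passed the threshold. Of 36 tested, 0 were called by limma, beside 0.903% of all genes called (0.376% higher and 0.527% lower). An unadjusted p under 0.05 was reached by 1 of the 36, against 1629 of all 11963 genes tested. The median change was 0.04, and 15 changes were negative, against 47% of all genes. On every array 1 member, Exo1, was lower and 4 were higher at 6 h, against 6.91% and 7.9% of all genes. The member with an unadjusted p under 0.05 was Rad51c, which read 6.45, 6.15 and 6.35 at 2 h and 6.65, 6.66 and 6.58 at 6 h (log2 change 0.31 ± 0.09 (SE), adjusted p = 0.135 by limma). The next smallest p-values were those of Slx4 (0.15, adjusted p = 0.409 by limma) and Fancf (0.18, adjusted p = 0.414 by limma). The 2 h and 6 h comparisons share their vector arrays, so that like values in both are not independent.

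The 2 designs share no arrays, and 35 members were tested in both. Of the 30 with a negative change at 48 h, 11 were negative and 19 positive at 6 h, and of the 5 with a positive change, 3 were positive and 2 negative. Over all genes tested, 48.9% had a negative change at 48 h and 50.1% at 6 h. In all, 3 members were called in both designs, beside 14.8% of all genes called at 48 h and 5.78% at 6 h. The shares of all genes called in both, or of opposite sign in the 2 designs, were not computed. Fancc was lower in both, by 1.26 at 48 h and 0.41 at 6 h on the log2 scale of each array type. Rad51c and Rad54b were lower at 48 h (-0.81 and -3.01) and higher at 6 h (0.47 and 0.31). For Rad51c the Ikaros arrays at 48 h lay just above the floor limit. The members with the largest falls at 48 h, Exo1 and Brca2, were not called at 6 h. Whether the members' changes differ between the designs was not tested, since array type, construct, control and time all differ between them.

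**Figure D4:**
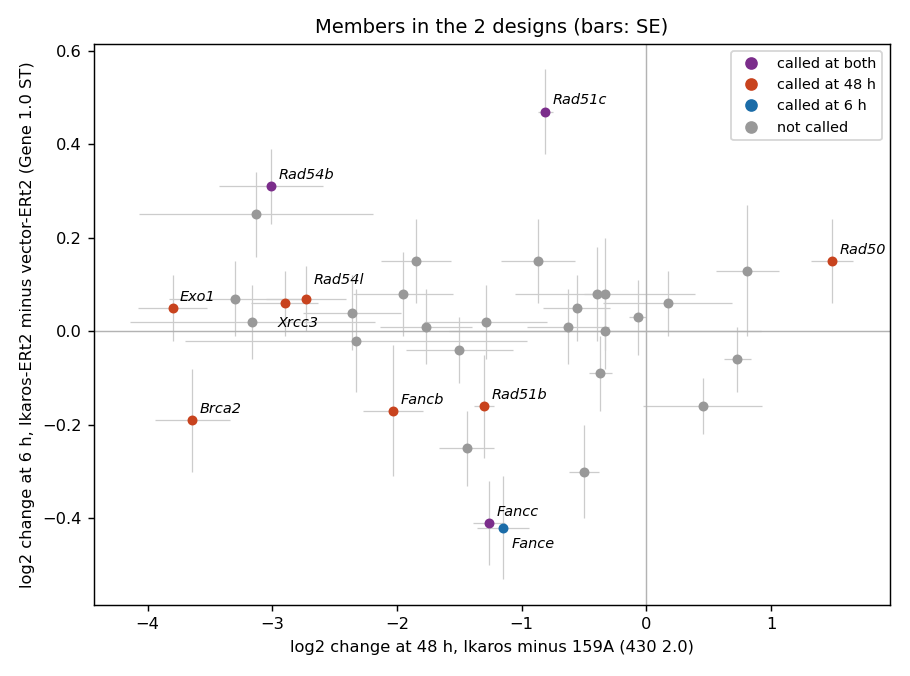
Log2 change at 48 h (x axis, Ikaros minus 159A, 430 2.0 arrays) against that at 6 h (y axis, Ikaros-ERt2 minus vector-ERt2, Gene 1.0 ST arrays) for the 35 members tested in both; bars are SE, and colours mark where a gene was called. The x axis spans from -3.80 to 1.49 and the y axis from -0.42 to 0.47, with Rad51c and Rad54b at upper left and Fancc at lower left.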

How the data were processed

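RNA of 13 samples of mouse B3 cells was hybridised to Affymetrix 430 2.0 (4 arrays) and Gene 1.0 ST arrays (9 arrays). The authors deposited log2 values, 1 for each probe set on each array. GCRMA, RMA, affy and limma are the tools that the submitters' processing notes list, without a role for each. The array types were normalized separately and tested separately. Gene names came from the platform annotation: 34958 of 45101 (430 2.0) and 21789 of 35556 (Gene 1.0 ST) had 1 symbol and were used. Where a gene had several, the one with the highest mean stood for it; 26 members had several on the 430 2.0 arrays, and of the 18 with several above the floor, 3 differed in sign (Atr, Rad51d and Rad52).

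The dimmest 40% of genes by mean were left out. This kept 10916 genes with 35 members and 11963 genes with 36. Comparisons were two-sided and used lmFit and eBayes of limma 3.58.1 (R 4.3.3), with Benjamini-Hochberg adjustment over all genes tested; the 9 Gene 1.0 ST arrays were fitted together. The fit was checked on simulated data. Titles call the samples biological replicates but do not mention separate cultures, so the p-values reflect only how these arrays vary, which may be technical. Pearson's r between arrays of 1 group was 0.987 to 0.995. Same-numbered arrays were not treated as pairs.

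The members and the lists beside them were chosen with earlier results of these data known. Named in the text are, per comparison, every called member, the 3 with the smallest p where fewer than 3 were called, the largest and smallest change per role at 48 h, up to 4 called genes of the other pathway list, and Ikzf1; other members are named to account for the whole list. Alternatives were the filter, the normalization, the variance model, the replicate block, the mean over probe sets, the arrays fitted and leaving out each array.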

Additional observations from a re-analysis of the deposited data

Results flagged for a closer look

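In 3 of the 35 members tested in both designs, every array of one design lay on the opposite side of its control from every array of the other design. Over all genes tested, 30% were lower and 27.7% higher without overlap at 48 h, and 10.3% and 11% at 6 h. The share of all genes that did so in opposite directions was not computed, so the count is not a result about these members. Rad51c had a log2 change of -0.81 at 48 h and 0.47 at 6 h, and was called in both. At 48 h it read 3.28 in Ikaros cells, just above the floor limit of 3.19, and 4.09 in 159A cells. Its other probe set read 2.63 in both groups. Rad54b had changes of -3.01 and 0.31, and was also called in both. Chek1 had changes of -3.13 and 0.25, and was called in neither. In each case the difference between the designs was not tested, since the designs use other arrays, constructs and controls.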

How the results depend on the processing

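At 48 h the count of called members (10) went to 0 without the filter on low genes, to 16 with quantile normalization again and to 16 with each array centred on its median. The count over all genes (1621) went to 185 without the filter and to 2437 with centring. That of the other pathway genes (8) went to 0 and 16, and that of the cell division genes (21) to 3 without the filter and to 35 with the lowest 60% of genes left out. The median change of the members was -0.72 with the mean over probe sets. Leaving out each array gave 0 calls for the members, the other pathway, the cell division genes and all genes, and medians from -1.36 to -1.20.

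At 2 h the count over all genes (223) was 141 without the filter, and that of the other pathway genes (2) was 1 without the filter or with only the 2 groups fitted. For the cell division genes (2) it was 1 without the filter, with quantile normalization, with the replicate block or with only the 2 groups fitted. Leaving out each array gave 0 to 1 members, 1 to 2 other pathway genes, 0 to 2 cell division genes, 82 to 269 genes in all and medians from -0.06 to 0.01. At 6 h the count of members (5) was 1 with only the 2 groups fitted. For the cell division genes (2) it was 0 without the filter, 4 with the lowest 60% left out, 10 with quantile normalization, 5 with centring and 0 with only the 2 groups fitted. Leaving out each array gave 1 to 5 members, 2 to 3 other pathway genes, 0 to 5 cell division genes, 335 to 711 genes in all and medians from 0.02 to 0.05. For 6 h over 2 h the count over all genes (108) was 59 without the filter, 0 with only the 2 groups fitted (1300 at an unadjusted p under 0.05 by limma) and 9 to 149 with each array left out, with medians of the members from 0.02 to 0.09.

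Signs turned for Ikzf1 at 48 h with the mean over its probe sets (-4.01), for Slx4 with centring (0.04), for Rad51d (-0.42) and Atm (0.52) without Ikaros replicate 1, and for Fancg without Ikaros replicate 2 (0.68) or 159A replicate 1 (0.74). With each array left out, Rad51d ran from -0.42 to 0.76, Atm from -1.17 to 0.52 and Fancg from -1.41 to 0.74. The cause was not tested.

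Same-numbered arrays correlated at 0.572 at 48 h, and arrays of different number at -0.572. With 2 arrays a group the deviations mirror each other, so that all pairs give the same value up to its sign. The positive sign for same-numbered arrays means that their deviations ran alike over the genes tested. Whether the numbers mark pairs was not tested, and the main fit at 48 h left any such shared shift in its spread. On Gene 1.0 ST arrays the correlations ran from -0.258 to 0.244, and 2 of 9 arrays went best with their own number. With the replicate block, 0 members, 0 other pathway genes, 0 cell division genes and 0 of all genes were called at 48 h by limma (24 members and 4493 genes at an unadjusted p under 0.05), and at 6 h 2 members and 1 cell division gene.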
